A study of Saccharomyces cerevisiae with 11 samples.

Results

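The seripauperin (PAU), DAN and TIR genes of budding yeast encode related proteins, several of them known parts of the cell wall. Their transcripts were followed in 5 strains that each lack 1 histone chaperone. The 30 genes were chosen by systematic name: PAU1 to PAU24, DAN1, DAN4 and TIR1 to TIR4, out of 6256 genes measured on every array. All 30 passed the filter on dim genes, which left 5916 genes to test.

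Single deletions of ASF1, CHZ1, NAP1, RTT106 and VPS75 had each been made in the parent BY4742. Every strain was measured once after trichostatin A (TSA), an inhibitor of histone deacetylases, at 10 µM for 1 h, and once without TSA. The wild type BY4742 was measured once after the same TSA treatment. Cells grew at 30 °C in rich medium with glucose, and TSA was added at an optical density (OD600) of 0.5. Each of the 11 arrays compared experimental RNA with reference RNA, read here as RNA of untreated wild type cells. The labels give Cy3 for the experimental and Cy5 for the reference RNA, but on the nap1 array without TSA the columns ran the other way, and whether its dyes were swapped is not given in the sources used here. No strain and treatment was measured on more than 1 array. The 2 arrays of a strain may share a culture, so the p-values below measure only the spread between these arrays.

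Seripauperins form a large yeast gene family with near-identical members, most of them close to chromosome ends, and their genes are best known for being switched on when oxygen runs short. The Dan and Tir proteins are mannoproteins bound to the wall, made in quantity without oxygen or in the cold, when the wall is remodelled. Several chromatin and haem-dependent repressors are known to hold many of these genes low in aerated cultures with glucose. TIR1 and TIR2 were not low in the reference RNA here. On 10 arrays they stood 3.30 to 3.83 and 4.07 to 5.80 above the array's median gene on the log2 scale. On the nap1 array without TSA they stood at 2.22 and 4.76. Asf1, Rtt106, Nap1, Vps75 and Chz1 carry histones to and from DNA.

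Values below are log2 ratios of experimental over reference RNA after normalization within each array, and signals are means of the 2 repeat measurements on an array. The median signal of a channel was 357 to 1095, and repeat measurements correlated across genes at 0.768 to 0.969. The lowest of these correlations belonged to the asf1 deletion with TSA. The signal of 4 genes absent from BY4742 was also highest there, with a median of 131.2 in the experimental channel, against 7.25 to 59.25 on the other deletion arrays. The deleted gene stood at −4.53 to −2.86 on the 10 arrays of its own strain, and the 5 genes stood at −0.39 to 0.386 on the 45 other combinations. MFALPHA1 and STE3, which mark the mating type of BY4742, were detected on 11 of 11 arrays, but so were MFA1 and STE6 of the opposite type. STE2 and MFA2, also of the opposite type, were detected in 7 and 4 experimental and in 10 and 4 reference channels. A detected signal here means only one above the background of absent genes. On the array of the nap1 deletion without TSA, reference levels correlated with those of other arrays at 0.814 (median), against a median of 0.994 over all arrays. The chz1 array without TSA came next, at 0.928. Its ratios had the widest spread of all arrays over the genes tested (SD 0.542), and its repeat measurements had the largest median gap (0.125). Its title alone names glucose.

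Of the 30 genes, 24 were detected in both channels on all 11 arrays. DAN1 was detected least often, with 6 of 11 experimental and 7 of 11 reference channels above the line, followed by PAU19 with 6 and 10. PAU7, PAU21, PAU22 and DAN4 missed the line in 1 or 2 experimental channels. The PAU genes have near-identical sequences, and the probe sequences were not used here. Signal of one gene may therefore include its relatives, and counts over PAU genes are not counts of separate measurements.

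The PAU genes stood apart from 0 in the rtt106 deletion on both arrays. Their median was 0.81 with TSA, with 23 of 24 genes above 0, and 0.76 without TSA, with 21 of 24 above 0. In the asf1 deletion the median was 0.22 with TSA and 0.18 without, and the genes spread over a wider range, −1.13 to 0.85 and −1.47 to 0.76. On the other 7 arrays the PAU medians lay close to 0, between −0.22 in the vps75 deletion without TSA and 0.06 in the chz1 deletion without TSA. The medians of the 6 TIR and DAN genes were 0.23 and 0.33 in the rtt106 deletion with and without TSA, and 0.52 and 0.37 in the asf1 deletion. The median of all genes tested stayed between −0.01 and −5e-04 on every array.

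**Figure D1:**
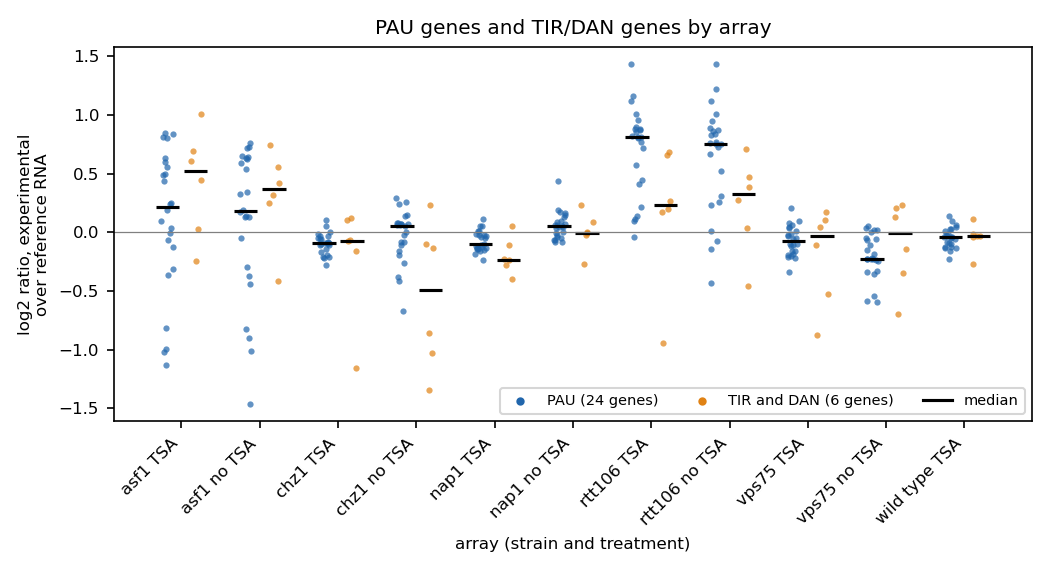
Log2 ratio of experimental over reference RNA (y axis) for each of 24 PAU genes (blue points) and 6 TIR and DAN genes (orange points) on 11 arrays (x axis). Black bars are medians, and the PAU medians of the rtt106 arrays, 0.81 and 0.76, are the highest.

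In the rtt106 deletion 18 of the 30 genes rose against wild type, and none fell. They were 17 of 24 PAU genes and TIR1, with limma and Benjamini-Hochberg adjustment over all 5916 genes at 0.05. Across all genes tested, 4.7% passed the same test in this direction. The median over the 24 PAU genes was 0.80, against −0.0041 over all genes.

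PAU5 (YFL020C), a seripauperin linked to protection from a killer toxin, rose most. Its signal was 659 with TSA and 668.5 without in rtt106 RNA, against 199 and 206.5 in the reference RNA of the same arrays. The log2 ratio was 1.43 on both arrays, a 2.70-fold change (SE 0.08 on the log2 scale, n = 2 arrays, limma adjusted p = 0.00036). This SE, like the other SEs of a strain, comes from the model of all 10 deletion arrays, not from these 2 arrays alone. On the 7 arrays of other strains than rtt106 and asf1, PAU5 lay between −0.16 and 0.21, so the rtt106 values did not overlap them.

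PAU3 (YCR104W) had signals of 647.5 and 617.5 in rtt106 RNA with and without TSA, against 247.5 and 225.5 in reference RNA. Its ratios were 1.16 and 1.22, a mean of 1.19 (limma adjusted p = 0.0012). PAU15 (YIR041W) had ratios of 1.12 and 1.11, with a mean of 1.12 (SE 0.08, limma adjusted p = 0.00065). PAU22 (YPL282C) had ratios of 1.00 and 1.01 and PAU21 (YOR394W) 0.95 and 0.95, so these 5 genes differed by at most 0.06 between the arrays with and without TSA.

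The other 12 PAU genes that rose had means between 0.55 and 0.88. PAU16 (YKL224C) averaged 0.88, PAU17 (YLL025W) 0.86, PAU19 (YMR325W) 0.86 and PAU13 (YHL046C) 0.85. PAU14 (YIL176C) averaged 0.82, PAU1 (YJL223C) 0.81, PAU23 (YLR037C, also DAN2) 0.80 and PAU10 (YDR542W) 0.79. PAU24 (YBR301W, also DAN3) averaged 0.78, PAU9 (YBL108C-A) 0.77, PAU7 (YAR020C) 0.69 and PAU2 (YEL049W) 0.55. Of these, PAU2, PAU17 and PAU24 were closest to the threshold, with limma adjusted p of 0.032, 0.049 and 0.041, and none of the 3 passed when the vps75 strain was left out of the model. With the log ratio as given in the deposited files (the deposited ratio), in place of the one computed here, PAU19 averaged 1.62, PAU22 1.59, PAU21 1.49 and PAU7 1.13.

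The 7 PAU genes that did not pass in the rtt106 deletion had smaller ratios on both arrays. PAU12 (YGR294W) averaged 0.36, PAU4 (YLR461W) 0.35 and PAU11 (YGL261C) 0.23. PAU8 (YAL068C) averaged 0.05, PAU6 (YNR076W) 0.02, PAU18 (YLL064C) −0.002 and PAU20 (YOL161C) −0.24. The last 4 of these had limma adjusted p between 0.45 and 1.00.

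**Figure D2:**
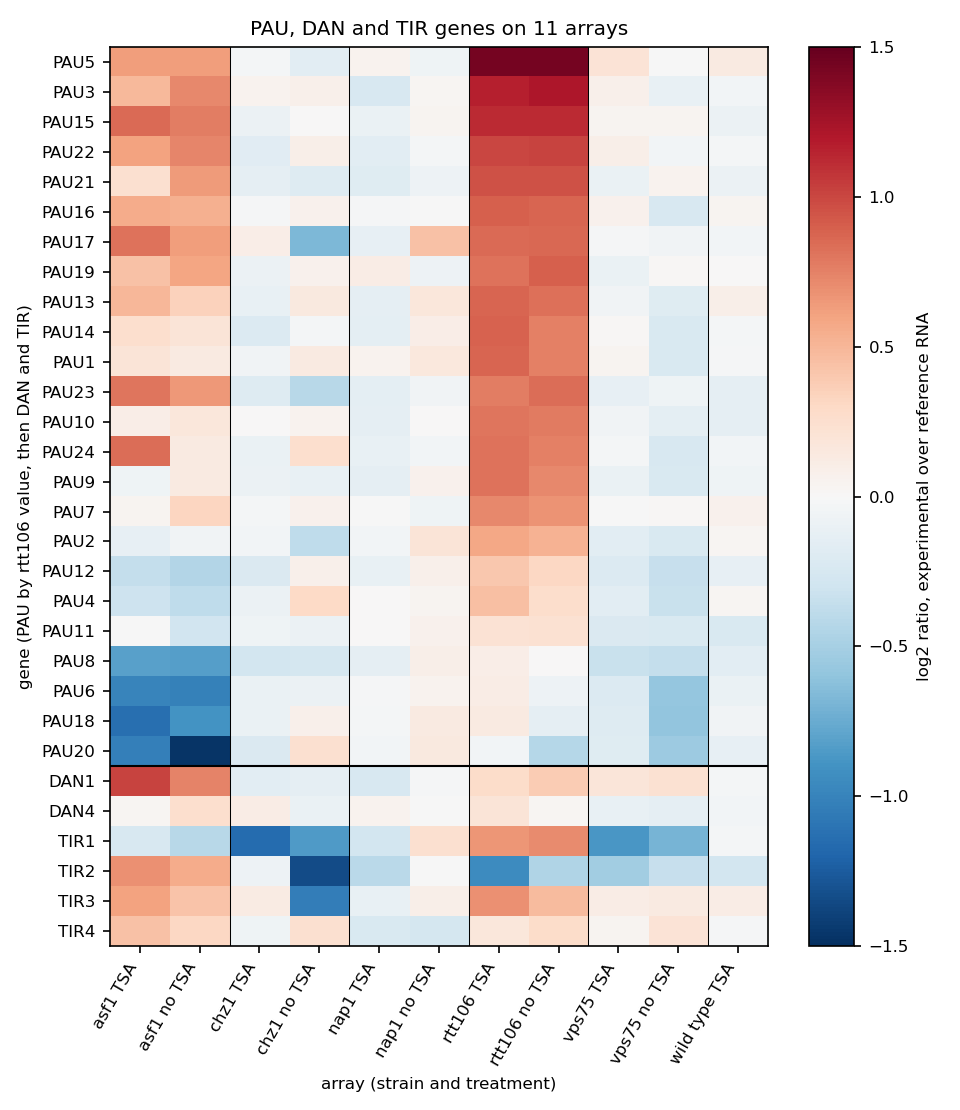
Colour gives the log2 ratio of experimental over reference RNA, capped at −1.5 and 1.5, for 30 genes (rows, PAU genes ordered by their rtt106 mean, then DAN and TIR) on 11 arrays (columns). The rtt106 columns are red down to PAU2 and pale at PAU8, PAU6, PAU18 and PAU20, and the same 4 genes are blue in the asf1 columns.

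Against the other deletions the rtt106 strain gave a like count. Set against the mean of the other 4 strains, 16 members were higher, 15 PAU genes and TIR1, and none were lower. Of all genes tested, 2.03% were higher in this contrast. PAU5 differed by 1.27 (SE 0.09, limma adjusted p = 0.0014), PAU3 by 1.05 and PAU15 by 0.92. PAU17 and PAU24 passed against wild type but not here, and the asf1 strain, in which several PAU genes were also high, is part of the mean of the others. The count was 7 without the vps75 strain, 10 without the asf1 array with TSA and 25 without the chz1 array without TSA.

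In the asf1 deletion the PAU genes moved in both directions. Against wild type 9 members rose, PAU15, PAU23, PAU22, PAU5, PAU3, PAU16, PAU19, PAU21 and DAN1, where 5.29% of all genes rose. In the same strain 4 members fell, PAU6, PAU8, PAU18 and PAU20, where 1.37% of all genes fell. When the asf1 array with TSA, the one with the high background, was left out, 0 of 30 members passed. Leaving out the chz1 array without TSA gave 22.

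PAU20 (YOL161C) fell furthest. Its signal was 274.5 with TSA and 108.5 without in asf1 RNA, against 472 and 340 in reference RNA. The ratios were −1.02 and −1.47, and the mean of −1.24 corresponds to 0.422 of the wild type level (SE 0.17 on the log2 scale, limma adjusted p = 0.0075). PAU20 lay between −0.54 and 0.24 on the 7 arrays of strains other than asf1 and rtt106, with the lowest value in the vps75 deletion without TSA.

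PAU18 had signals of 265 and 216 in asf1 RNA with and without TSA, against 496 and 409 in reference RNA, and a mean ratio of −1.02. PAU6 had 289.5 and 215.5 in asf1 RNA, against 493.5 and 450.5 in reference RNA, and a mean of 0.499 of the wild type level (limma adjusted p = 0.0027). PAU8 averaged −0.82, with −0.81 on the array with TSA and −0.83 without. For these 3 genes both asf1 arrays lay below all other arrays, and PAU6 and PAU18 came nearest to them in the vps75 deletion without TSA, at −0.58 and −0.59.

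Among the PAU genes that rose in the asf1 deletion, PAU15 was highest. Its signal was 479.5 and 288 in asf1 RNA with and without TSA, against 163.5 and 126.5 in reference RNA. The ratios were 0.85 and 0.76, with a mean of 0.80 (SE 0.08, limma adjusted p = 0.0027). PAU23 averaged 0.73, PAU22 0.66, PAU5 0.63, PAU3 0.60, PAU16 0.55, PAU19 0.52 and PAU21 0.44. With the deposited ratio the means were larger, 1.37 for PAU15, 1.53 for PAU22, 1.07 for PAU5, 0.98 for PAU3, 0.88 for PAU16, 1.61 for PAU19 and 1.34 for PAU21. In the experimental channel of the asf1 array with TSA, PAU19 and PAU21 were under the detection line, at 260.5 and 251 against a line of 262.5, so their ratios there carry no exact size. PAU17 averaged 0.72 but missed the threshold (limma adjusted p = 0.073), and its spread was wide elsewhere, with −0.67 in the chz1 and 0.44 in the nap1 deletion without TSA. PAU24 had 0.84 with TSA and 0.13 without, and its 2 repeat measurements on the array with TSA differed by 1.60.

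The remaining PAU genes had asf1 means of −0.40 to 0.42 and did not pass. PAU13 stood at 0.42, PAU14 at 0.22, PAU7 at 0.18, PAU1 at 0.17, PAU10 at 0.13 and PAU9 at 0.03. PAU2 stood at −0.09, PAU11 at −0.15, PAU4 at −0.35 and PAU12 at −0.40 (limma adjusted p = 0.067). Set against the mean of the other 4 strains, 3 members were higher in the asf1 deletion (PAU15 by 0.53, PAU23 by 0.65 and DAN1 by 0.81), where 1.66% of all genes were higher. The same 4 PAU genes were lower in that contrast (with differences of −0.89 for PAU6, −0.68 for PAU8, −0.93 for PAU18 and −1.11 for PAU20), where 0.304% of all genes were lower.

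**Figure D3:**
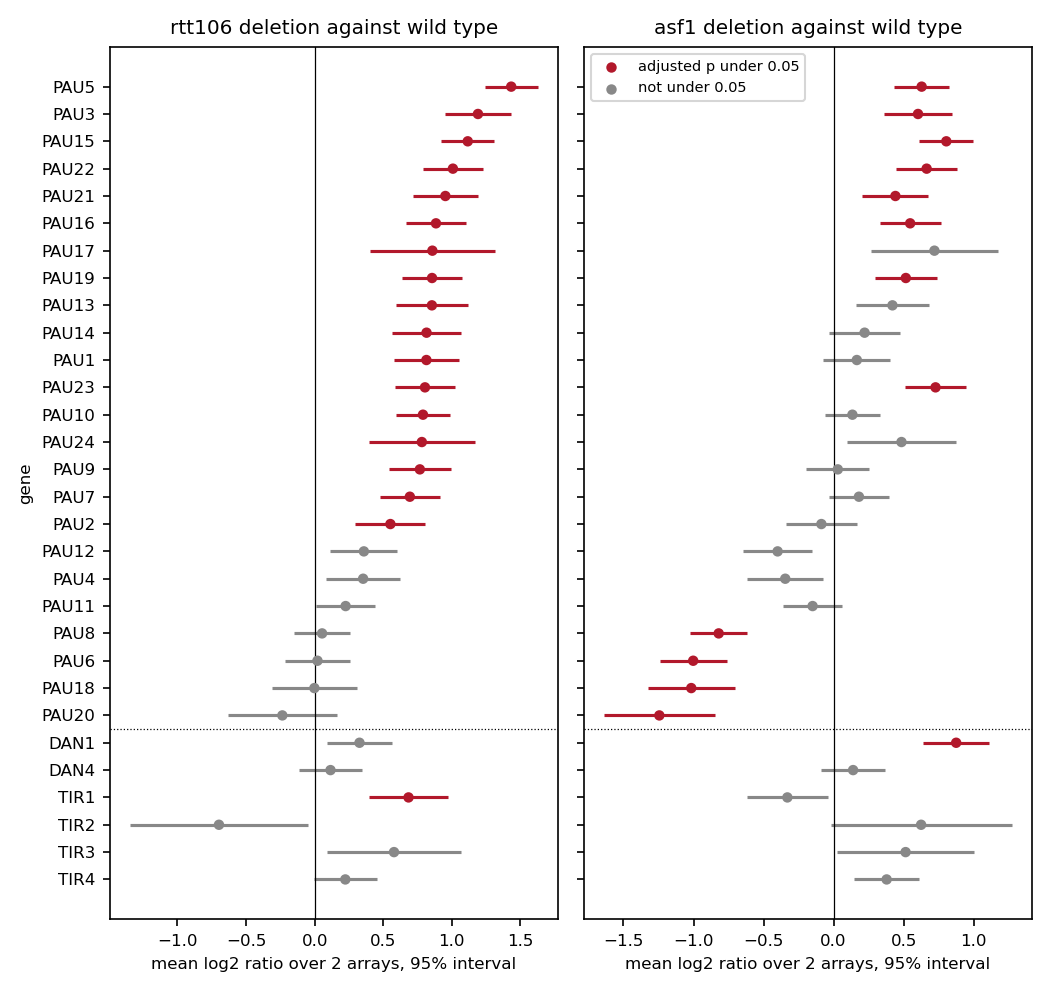
Mean log2 ratio over the 2 arrays of a strain with its 95% interval (x axis) for 30 genes (y axis), in the rtt106 (left) and asf1 (right) deletion against wild type. Red marks a limma adjusted p under 0.05, and the red points are all right of 0 in rtt106 (18 genes) and on both sides in asf1 (9 and 4 genes).

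The asf1 deletion was then set directly against the rtt106 deletion. All 24 PAU genes had a lower ratio in asf1, with differences of −1.02 to −0.08 and a median of −0.59, and the median over all genes tested was 2e-04. Of the members, 3 passed: PAU6 with −1.02, PAU8 with −0.87 and PAU5 with −0.80 (limma adjusted p = 0.032, 0.032 and 0.033). Of all genes tested, 0.439% were lower in this contrast. The count of members was 0 without the asf1 array with TSA and 18 without the chz1 array without TSA. Both strains were measured against the same kind of reference RNA, on separate arrays.

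The PAU genes split by the length that RefSeq (assembly R64) gives them, a division made after the values had been seen and thus not tested. The commonest length was 363 bases. The 9 longer genes, of 369 to 495 bases, were PAU3, PAU5, PAU15, PAU16, PAU17, PAU19, PAU21, PAU22 and PAU23. All 9 rose in the rtt106 deletion (median 0.95), where 4.7% of all genes rose. In the asf1 deletion 8 of 9 rose (median 0.63), where 5.29% of all genes rose. The 13 genes of 363 bases had medians of 0.36 in rtt106, with 6 that rose, and −0.15 in asf1, with 0 that rose and 4 that fell. Of all genes 1.37% fell in asf1. PAU7 and PAU9, annotated at 168 and 129 bases, rose in rtt106, and their asf1 means were 0.18 and 0.03. Signal level divided the PAU genes in much the same way. On the rtt106 array with TSA, reference signals were 429 to 742 for PAU4, PAU6, PAU8, PAU12, PAU18 and PAU20, which did not rise. The PAU genes that rose had 65.5 to 331, and the longer ones 65.5 to 252.5. PAU11, which did not rise either, had 185. Whether length or signal level bears on the ratios was not tested.

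**Figure D4:**
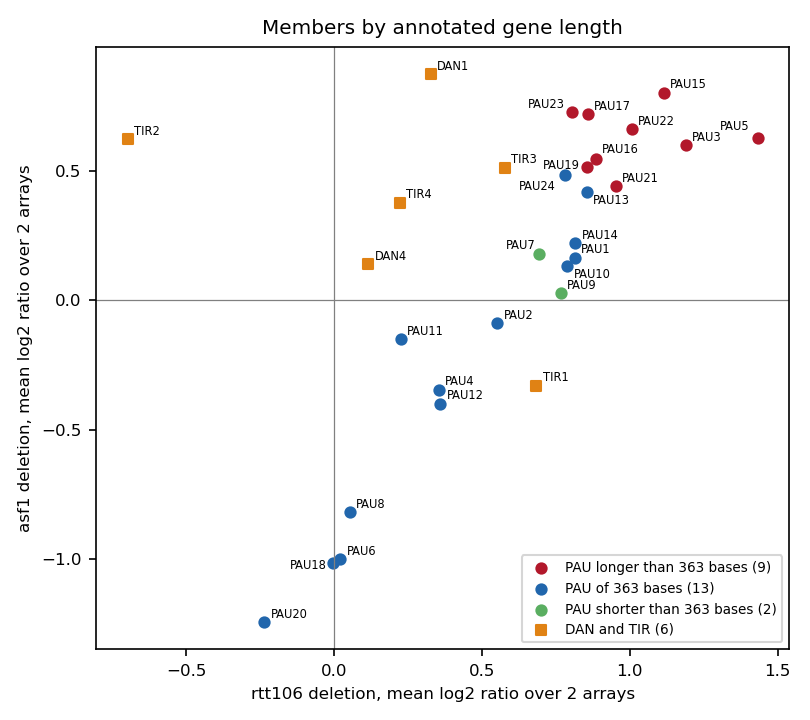
Mean log2 ratio over 2 arrays in the asf1 deletion (y axis) against that in the rtt106 deletion (x axis) for 30 genes, coloured by annotated gene length. The 9 PAU genes longer than 363 bases (red) lie above 0 on both axes, and the 13 of 363 bases (blue) run down to PAU20 at −0.24 and −1.24.

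Pearson's r over the 276 pairs of PAU genes across the 11 arrays had a median of 0.739 and a range of −0.614 to 0.986. The 15 pairs of TIR and DAN genes had a median of 0.337. These correlations describe 11 arrays that share a reference and, in pairs, a strain, and near-identical probes may share signal.

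By gene order in RefSeq, 19 of 24 PAU genes were among the 10 outermost protein-coding genes of a chromosome end. Of these 12 rose in the rtt106 deletion, with a median of 0.79, where 4.7% of all genes rose. The 5 others were PAU2, PAU5, PAU7, PAU17 and PAU23, between 15 and 100 genes from an end, and all 5 rose (median 0.80). The other 274 tested genes among the 10 outermost had a median of 0.03 in rtt106 and 10.9% of them rose. Over all genes tested the median in rtt106 was −0.0041, and 4.7% rose and 1.22% fell. Of the genes directly beside a PAU gene, 35 were tested, with a median of 0.13. Among them 4 rose and 1 fell: ADH7, YLR460C, YPS6 and YOL162W rose, and SSA2, an abundant heat shock protein gene beside PAU17, fell. These neighbours were named after their values had been seen.

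In the other 3 deletions no PAU gene passed against wild type. In chz1 the PAU means ran from −0.30 to 0.10, in nap1 from −0.13 to 0.16 and in vps75 from −0.40 to 0.10. Across all genes 0.0845% passed in chz1 and 0.0169% in nap1, in either direction, and in vps75 3.09% were higher and 0.507% lower. At an unadjusted p under 0.05 there were 2, 0 and 5 of 24 PAU genes, where 21.7%, 5.22% and 12.6% of all genes were. Against the mean of the other strains 0 members passed in chz1, nap1 and vps75 (limma), where 0.287%, 0.0338% and 2.96% of all genes passed. At an unadjusted p under 0.05 there were 15, 17 and 15 of 30 members, where 15.7%, 9.08% and 9.06% of all genes were. The mean of the others holds both rtt106 arrays in each of these contrasts. In the vps75 deletion all 24 PAU genes were below the mean of the other strains. The lowest PAU values there were those of PAU18, PAU6 and PAU20 without TSA, −0.59, −0.58 and −0.54. With TSA the same genes stood at −0.20, −0.21 and −0.18.

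DAN1 (YJR150C), a wall mannoprotein gene that is nearly silent with oxygen, rose in the asf1 deletion. Its signal was 298.5 with TSA and 99.5 without in asf1 RNA, against 37.5 and 21.5 in reference RNA. The ratios were 1.01 and 0.74, with a mean of 0.87 (SE 0.10, limma adjusted p = 0.0046). The mean was 2.61 with the deposited ratio and 0.69 without the array with TSA, where it did not pass. The reference signal on the array with TSA was under its detection line of 48, and with the line in its place the fold there was 1.80. This is not a lower bound, because the experimental signal of 298.5 was itself close to its line of 262.5. Absent genes had a median of 131.2 in that experimental channel, against 24 in the reference channel. The 2 repeat measurements of DAN1 on this array differed by 0.63. On the 9 other arrays DAN1 lay between −0.24 and 0.38, the upper end in the rtt106 deletion without TSA, so the asf1 values did not overlap them. In rtt106 it averaged 0.33 and did not pass (limma adjusted p = 0.11).

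DAN4 (YJR151C), the gene next to DAN1, stayed between −0.14 and 0.25 on all 11 arrays. Its highest value was that of the asf1 deletion without TSA, and it passed in no strain. In the experimental channel of the asf1 array with TSA its signal of 252 was under the detection line.

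TIR1 (YER011W), a cold- and anoxia-induced mannoprotein gene, was the TIR gene with the clearest differences between strains. Its signal was 14649 with TSA and 16219 without in rtt106 RNA, against 8471.5 and 8500 in reference RNA. The ratios of 0.66 and 0.71 gave a mean of 0.68, a 1.61-fold rise (SE 0.12 on the log2 scale, limma adjusted p = 0.024). It did not pass with the vps75 strain left out of the model or with scale normalization between arrays. In the vps75 deletion TIR1 was the only member that fell, with signals of 5919.5 and 6754.5 with and without TSA, against 10538 and 10328 in reference RNA. The ratios were −0.88 and −0.70, with a mean of −0.79 (limma adjusted p = 0.012).

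In the chz1 deletion TIR1 had ratios of −1.16 with TSA and −0.85 without. The mean of −1.01 was lower than in vps75 but missed the threshold (SE 0.12, limma adjusted p = 0.052). In asf1 TIR1 stood at −0.24 and −0.42, and in nap1 at −0.27 and 0.24, with and without TSA. Set against the mean of the other 4 strains, TIR1 was 1.22 higher in rtt106 (SE 0.14, limma adjusted p = 0.0059), and no other strain overlapped the 2 rtt106 values.

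TIR2 (YOR010C), another mannoprotein gene induced by cold, varied most between the arrays and passed in no strain. Its signal was 12560 with TSA and 24370 without in rtt106 RNA, against 21040 and 25198 in reference RNA, ratios of −0.94 and −0.45. In asf1 RNA it was 29006 and 36303, against 16818 and 21622 in reference RNA, ratios of 0.69 and 0.56. In the chz1 deletion without TSA it was 7800, against 18433 in reference RNA, a ratio of −1.34, whereas the chz1 array with TSA gave −0.07. The order of strains thus differed between TIR1 and TIR2: TIR1 was highest in rtt106, and TIR2 was highest in asf1.

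TIR3 (YIL011W), which encodes a wall mannoprotein needed for growth without oxygen, stood at 0.68 and 0.47 in rtt106 and at 0.61 and 0.42 in asf1, with and without TSA. In the chz1 deletion without TSA it stood at −1.03, with a signal of 621.5 against 1342.5 in reference RNA, and with TSA at 0.13. That reference signal was itself the highest of the 11 arrays, the others being 240 to 576. TIR4 (YOR009W), the neighbour of TIR2 and likewise needed without oxygen, ranged from −0.27 in nap1 without TSA to 0.44 in asf1 with TSA. Neither passed in any strain. In asf1, TIR4 averaged 0.38 (SE 0.10, limma adjusted p = 0.067) and TIR3 0.51 (SE 0.21, limma adjusted p = 0.20).

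Treated as 5 replicates of the loss of a chaperone, the deletions showed no common change of the members that passed a test. Without TSA 0 of 30 passed against wild type (limma), where 0% of all genes passed. At an unadjusted p under 0.05 there were 0 of 30, where 7.1% of all genes were. With TSA 0 of 30 passed, where 6.9% of all genes passed, and 1 of 30 was under 0.05 unadjusted, where 28.2% of all genes were. The arrays with TSA set treated deletions against untreated wild type RNA, so deletion and TSA cannot be told apart in that test. The PAU genes with the highest means without TSA were PAU15 at 0.39, PAU3 at 0.39, PAU5 at 0.37 and PAU22 at 0.35. The lowest were PAU20 at −0.41, PAU6 at −0.34, PAU18 at −0.29 and PAU8 at −0.27.

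No member differed past the threshold between arrays with and without TSA. Each strain's array with TSA was set against its array without. None of the 30 members passed (limma, strain as a block), with 0 at an unadjusted p under 0.05 and a smallest adjusted p of 0.81, where 0% of all genes passed and 254 of 5916 were under 0.05 unadjusted. The PAU mean differences ran from −0.12 for PAU21 to 0.11 for PAU20, with a median of 9e-04 against −0.0011 over all genes. PAU5 had the same sign in all 5 strains, 0.003, 0.13, 0.12, 0.004 and 0.21 in asf1, chz1, nap1, rtt106 and vps75, with a mean of 0.09 and a 95% interval of −0.08 to 0.27. PAU24 averaged 0.11 (SD 0.39, n = 5 strains), PAU6 0.10 (SD 0.18) and PAU20 0.11 (SD 0.40). At the low end PAU3 averaged −0.08, PAU22 −0.08 and PAU19 −0.06.

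TIR2 and TIR3 had the widest spread of TSA differences over strains among the 30 members. In the chz1 deletion TIR2 differed by 1.27 and TIR3 by 1.16, the array without TSA being the low one, while the other 4 strains lay between −0.48 and 0.13 for TIR2 and between −0.19 and 0.21 for TIR3. The means over 5 strains were 0.07 (SD 0.71) and 0.27 (SD 0.52). TIR1 was lower with TSA in 4 of 5 strains, with a mean of −0.17 and a 95% interval of −0.43 to 0.08. The mean differences of DAN1, DAN4 and TIR4 were −0.03, 0.05 and −0.08.

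**Figure D5:**
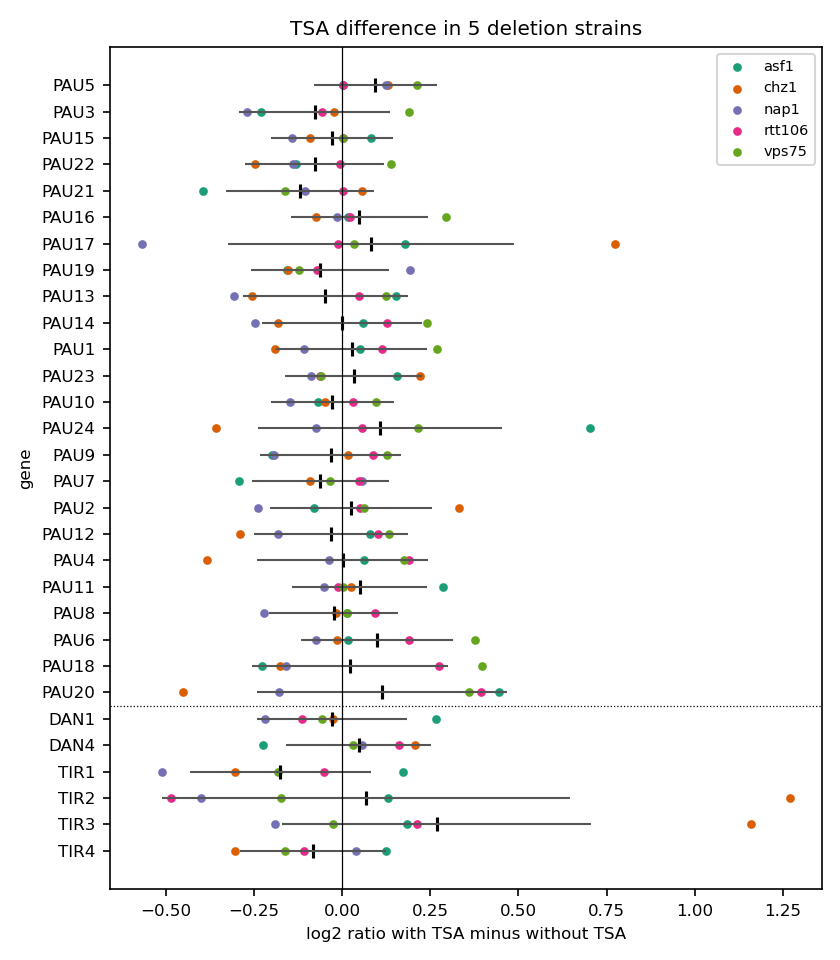
Log2 ratio with TSA minus that without TSA (x axis) for 30 genes (y axis) in 5 deletion strains (coloured points), with the mean over strains (black tick) and its 95% interval (line). The intervals of all 30 genes span 0, and the points farthest right are TIR2 and TIR3 in the chz1 deletion.

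In wild type cells with TSA, on 1 array and with no test, no member differed by 2-fold, where 0.321% of all genes did. PAU genes ranged from −0.23 (PAU11) to 0.14 (PAU5) and the TIR and DAN genes from −0.27 (TIR2) to 0.11 (TIR3). The direction of this array is only likely because no deleted gene checks it, and with the sign turned the PAU genes would range from −0.14 to 0.23.

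Genes that regulate the DAN and TIR promoters were set beside them. The list held UPC2 and ECM22, activators that respond to sterols, ROX1 and MOT3, repressors, HAP1, the haem-dependent activator, TUP1 and CYC8, which form a corepressor, and SUT1, a sterol uptake factor. None of the 8 passed in any strain against wild type (limma). In rtt106, ROX1 averaged −0.34 (SE 0.13, adjusted p = 0.18) and UPC2 −0.09. In asf1, UPC2 averaged −0.34 (SE 0.10, adjusted p = 0.092) and ROX1 0.28. The list medians were −0.06 in rtt106 and −0.16 in asf1.

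Of 11 other genes of low oxygen or sterol uptake, 1 rose and 1 fell in rtt106, where CYC7 rose by 0.92 and FET4 fell by 0.88 (limma). Of all genes 4.7% rose and 1.22% fell in rtt106. In asf1 CYC7 rose by 1.86 and FET4 fell by 0.80, and no other gene of the list passed, where 5.29% of all genes rose and 1.37% fell. CYC7 encodes a cytochrome c isoform and FET4 an iron transporter. In vps75 COX5B, a cytochrome oxidase subunit gene, rose by 1.92, and AAC3, an ADP/ATP carrier gene, and FET4 fell by 0.87 and 0.82. Of all genes 3.09% rose and 0.507% fell in vps75. In wild type with TSA, on 1 array and with no chaperone deleted, FET4 stood at −0.65. CYC7 stood at 0.13 there, COX5B at 0.50 and AAC3 at −0.29. On the nap1 array without TSA, whose columns ran the other way, FET4 stood at 0.01. How far deletion, TSA or dye bias bears on the FET4 values was not tested. In chz1 AAC3 fell by 1.39, where 0.0845% of all genes passed in either direction. ANB1, a hypoxic translation factor gene, stood at 0.37 in rtt106 and −1.54 in chz1 and passed in neither (limma adjusted p = 0.44 and 0.079). The list medians were 0.12 in rtt106, −0.16 in asf1, −0.47 in chz1 and −0.30 in vps75.

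Of 11 other wall mannoprotein genes, 6 rose in asf1 (SED1, HSP150, CWP1, CWP2, PIR3 and CCW14), where 5.29% of all genes did (limma). In rtt106 and in vps75 CWP1 and CWP2 rose, where 4.7% and 3.09% of all genes did. CWP1 rose by 1.37 in asf1, 1.06 in rtt106 and 1.69 in vps75. These means take in arrays with and without TSA. In wild type with TSA, on 1 array, CWP1 stood at 0.68 and CWP2 at 0.51. Without TSA, CWP1 stood at 1.04 in asf1, 0.85 in rtt106 and 1.52 in vps75, and CWP2 at 0.48, 0.27 and 0.66. The mean TSA difference over strains was 0.57 for each gene and did not pass (limma adjusted p = 0.81 and 0.75). PIR3, a wall glucan-linked protein gene, rose by 2.77 in asf1 and stood at −0.02 in rtt106. The list medians were 0.66 in asf1 and −0.02 in rtt106, against 0.20 and 0.80 for the 24 PAU genes. In chz1 CWP2 averaged 0.82 and CWP1 1.03 and neither passed (limma adjusted p = 0.052 and 0.087).

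The non-member genes whose profile over the 11 arrays was most like the mean of the 24 PAU genes were DTR1 (Pearson's r = 0.966), RNP1 (0.965), JEN1 (0.963), PHO92 (0.961) and YNL018C (0.96). Their means in rtt106 ran from 0.57 for YNL018C to 2.05 for PHO92, and in asf1 from −0.03 for YNL018C to 0.67 for RNP1. Most like the mean of TIR1 to TIR4 were HMG1 (0.977), YMR158C-B (0.973), FRD1 (0.968), ATG38 (0.948) and ACH1 (0.945). HMG1, a sterol synthesis gene, averaged 0.03 in rtt106 and 0.09 in asf1. These likenesses are descriptions over 11 arrays that share a reference. On the chz1 array without TSA, the one with the widest spread, TIR1 to TIR4 stood at −0.85, −1.34, −1.03 and 0.23. How far that 1 array sets the likeness to the TIR mean was not tested.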

How the data were processed

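Total RNA was compared on 11 Agilent arrays with 2 colours. The authors deposited, per array, an intensity for each channel in 2 repeat measurements, a log10 ratio per probe and a signed fold that is treated here as a score. The series table deposited by the authors holds log2 values. Scanner settings, background correction and scaling are not given in the sources used here, and no background column was present, so the planned background subtraction was not possible.

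With R 4.3.3 and limma 3.58.1, 50 was added to each signal, log2 ratios were normalized by loess per repeat measurement, and the 2 repeats were averaged. All ratios run as experimental over reference, opposite in sign to the deposited log10 ratio except on the nap1 array without TSA, which was turned because NAP1 was low in its other channel. The 2 vps75 columns of the series table held each other's array. Labels of the TSA arrays and of the chz1 array without TSA name the untreated deletion as reference, but the deleted gene was detected in the reference channel of 10 of 10 arrays, and wild type was taken. The detection line was 2 times the median signal of HIS3, LEU2, LYS2 and URA3, all missing from BY4742. Genes above it, in one channel or the other, on 50% or more of 10 deletion arrays were tested (5916 of 6256). On 1 array 18 control probes were left out.

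Models were fitted over all 5916 genes with lmFit and eBayes. Strain was a block, since the design pairs a strain's arrays, and the Benjamini-Hochberg threshold was 0.05. The deviations of a strain's 2 arrays correlated across genes at 0.594 (asf1), −0.152 (chz1), 0.4 (nap1), 0.657 (rtt106) and 0.676 (vps75). A strain against wild type is its mean ratio over both arrays, with the TSA term in the model. It leaves out the spread of wild type cultures and any dye bias. This test, asf1 minus rtt106 and the fits without single arrays were added after the data had been seen. Alternatives changed the offset, normexp correction, the normalization, the deposited ratios, the filter, the block and the strains used. Scripts were tested on simulated data. Values are named for all DAN and TIR genes and for the PAU genes with the 4 highest and lowest means without TSA and TSA differences, with the other PAU genes given by their strain means. The members and lists were chosen with earlier results of these data known. Gene order and lengths came from RefSeq, assembly R64, where all 30 members matched.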

Additional observations from a re-analysis of the deposited data

Results flagged for a closer look

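In 51 sets of 5 strains, 1 value was compared with the other 4 by its gap to the nearest over the range, by Dixon's criterion, which chance passes about 1 time in 20. The sets covered the DAN and TIR genes and the PAU genes with the highest and lowest means without TSA and TSA differences. Those PAU genes were picked from these same values, so that rate does not hold for their sets. In all, 5 values passed the criterion. The TSA difference of PAU19 was 0.194 in nap1, where the other strains lay between −0.156 and −0.071, and its signal was under the detection line in both channels of the nap1 array with TSA. Without TSA, TIR3 stood at −1.032 in chz1 (0.085 to 0.472 in the others) and TIR4 at −0.268 in nap1 (0.204 to 0.316). With TSA, PAU20 stood at −1.021 in asf1 (−0.212 to −0.037 in the others) and PAU18 at −1.13 (−0.196 to 0.136).

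The difference between the asf1 and rtt106 deletions passed the test for 3 members, PAU5 (−0.804), PAU6 (−1.023) and PAU8 (−0.875). None of the 3 passed without the asf1 array with TSA.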

How the results depend on the processing

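Each count of members past the threshold was recomputed under other settings, and the cause of the shifts below was not tested. Against wild type, the rtt106 count of 18 kept between 14 and 23 under all 13 settings. The asf1 count of 13 became 22 with median centring, 23 with the deposited ratio, 22 with the series table, 9 to 22 with a strain left out, 0 without the asf1 array with TSA and 22 without the chz1 array without TSA. The chz1 count of 0 became 1 with median centring and 1 without that chz1 array. TIR1 lost its call in vps75 with the series table. The vps75 count of 1 became 2 with the deposited ratio, 1 to 4 with a strain left out and 4 without the chz1 array. Against the other strains, the asf1 count of 7 became 15 with the deposited ratio, 14 with the series table, 3 with scale normalization, 0 to 12 with a strain left out, and 0 and 13 without the asf1 and the chz1 array. The rtt106 count of 16 became 7 to 25 with a strain left out, and 10 and 25 without those arrays. The chz1 count of 0 became 1 with no offset, 1 with normexp, 2 with median centring, 3 with the deposited ratio and 2 without the chz1 array. The nap1 count of 0 became 0 to 15 with a strain left out and 8 without the chz1 array. The vps75 count of 0 became 1 with the series table, 0 to 17 with a strain left out and 6 without the chz1 array. The 3 members of asf1 minus rtt106 became 1 with median centring, 0 with the deposited ratio, the series table or scale normalization, 0 to 18 with a strain left out, and 0 and 18 without the asf1 and the chz1 array. For TSA, 0 members passed under all 16 settings, also with no replicate block. Among these, the setting with the untreated deletion as the reference repeats the fit of the TSA-treated deletions against wild type. It is therefore not a separate test. Averaged over a strain's 2 arrays, the PAU median in asf1 (0.199) became 0.425 with median centring, 0.643 with the deposited ratio and 0.561 with the series table. In rtt106 (0.783) it became 0.908 with no offset, 0.976 with normexp, 1.042 with the deposited ratio and 1.017 with the series table. The TIR and DAN median in asf1 (0.446) became 0.832 and 0.78 with the deposited ratio and the series table, and in rtt106 (0.282) 0.464 with normexp, 0.448 with median centring, 0.627 and 0.605. In wild type with TSA the PAU median (−0.04) became 0.17 and 0.138, and the TIR and DAN median (−0.031) became 0.253 and 0.2, with the deposited ratio and the series table, so their sign is not settled. The deposited ratio moved the median of all genes by up to 0.139, on the asf1 array with TSA. Of 751 called member values recomputed, 630 stayed past the threshold, 121 did not and 0 changed sign. Of 90 recomputed TSA values of TIR and DAN genes, 10 changed sign and 0 passed. Dim genes limit the rest: DAN1 was under the detection line in 5 experimental and 4 reference channels.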

Other observations

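The array of the nap1 deletion without TSA had unlike levels of the members in its reference RNA. Relative to the array's median gene on the log2 scale, PAU17 stood at 0.57 in its reference channel, against −2.61 to −2.13 in the reference channels of the other 10 arrays. PAU11 stood at −0.32, against −3.02 to −1.79, and PAU2 at 0.45, against −1.39 to −0.91. TIR1 was lower there, at 2.22, against 3.30 to 3.83. The experimental channel of the same array was alike, with PAU17 at 1.12, PAU11 at −0.27, PAU2 at 0.64 and TIR1 at 2.54, so the ratios of these genes on that array stayed between 0.06 and 0.44. PAU4, PAU12 and PAU13, among others, showed the same direction in that reference channel, and PAU8 stood at −0.44, against −0.32 to 0.08.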
